A study of Caenorhabditis elegans with 4 samples.

Results

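The outer parts of chromosome V are the sparsest ground for EFL-1 among the autosome ends of Caenorhabditis elegans in these peak lists. The members described here are the binding regions (peaks) of the combined EFL-1 list whose midpoint lies on chromosome V below 5230000 or above 15680000 bp (WormBase WS220). There are 304 of them among 5334 combined peaks, or 5.70%, with 178 on the left arm and 126 on the right. Chromosome V as a whole held 855 combined peaks. The arms together make 10.5 Mb of a span of 20.9 Mb, which was taken to reach from the first base to the end of the furthest peak in the 3 lists.

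The study mapped EFL-1 by chromatin immunoprecipitation and sequencing (ChIP-seq) in L1 larvae, the larval stage that hatches from the egg. It held 4 samples, namely 2 ChIP replicates and 2 libraries of input DNA, and only the ChIP replicates have peak lists. All samples shared 1 condition: hermaphrodites labelled wild type (N2, strain entry "L1 26dC"), synchronised by starvation, fed E. coli HB101, grown at 26 degrees C and fixed with formaldehyde. The antibody is uncertain, because the sample names give an antibody in N2 animals while the protocol and the series title describe a GFP-tagged factor, and no control precipitation in other animals was used here. The labels do not say that the replicates were grown apart, and their spread may be of technical origin.

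EFL-1 belongs to the E2F transcription factors, which in mammals govern entry into the cell cycle. It binds DNA together with the DP protein DPL-1 and can act with the retinoblastoma protein LIN-35, a partner in repression of cell cycle and germline genes. The arms of worm autosomes recombine often and are rich in repeats, and those of chromosome V are known for large tandem families of quickly evolving genes, such as chemoreceptors, F-box proteins and C-type lectins. Most broadly expressed genes lie nearer the chromosome centres. No gene annotation or sequence of the WS220 build was used here, so peaks are given by position, with no gene, exon or sequence attached.

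The combined list and the 2 replicate lists each give 1 measurement per peak, a q-value from the peak caller. Strength below is the −log10 of that q-value, as deposited by the authors. Read numbers are unknown, and strength mixes enrichment with depth. The replicate 1 list held 3126 peaks with 173 on the V arms, and the replicate 2 list held 4540 with 262. These are 5.53% and 5.77% of their lists, close to the 5.70% of the combined list.

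The first comparison set the V arms beside the ends of chromosomes I to IV, that is the outer 25% of their span on each side. EFL-1 peaks on the V arms reached 0.52 of the density found there. The V arms had 29.1 combined peaks per Mb against 56.1 over the 1724 peaks of the other ends. A quasi-Poisson regression on windows of 100 kb, whose error includes the bunching of peaks, gave a ratio of 0.52, with a 95% interval of 0.44 to 0.62 that excludes 1. Neighbouring windows are not independent and V is 1 chromosome, so how much chromosomes vary among themselves is outside this interval.

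That variation is visible in the single ends. The V right arm had 24.1 peaks per Mb and the V left arm 34.0, whereas the other 8 ends ran from 39.8 on the left of II to 70.0 on the right of III. Both V arms were thus below each of the 8 other ends in the combined list. In replicate 1 the V arms had 20.1 (left) and 13.0 (right) peaks per Mb, and the other ends 20.7 to 46.2. In replicate 2 they had 29.4 and 20.7, and the other ends 33.5 to 63.9. This order among autosomes held in each list, although the left arm and the left end of II were almost level in replicate 1. Over the replicates, density was 20.8 ± 6.0 peaks per Mb on the V arms and 40.9 ± 10.7 on the other ends (SD, n = 2). The 2 lists differ in length, and the ratio within each was 0.50 in replicate 1 and 0.52 in replicate 2.

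The X chromosome, left out of these comparisons, was also sparse at its ends. The left and right end of X had 30.2 and 38.8 combined peaks per Mb, so the left end lay between the V arms and the right end above both. In replicate 1 they had 18.1 and 20.4, and in replicate 2 they had 25.2 and 30.6, in the same order relative to the V arms. Low density is thus not particular to the V arms when X is counted.

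**Figure D1:**
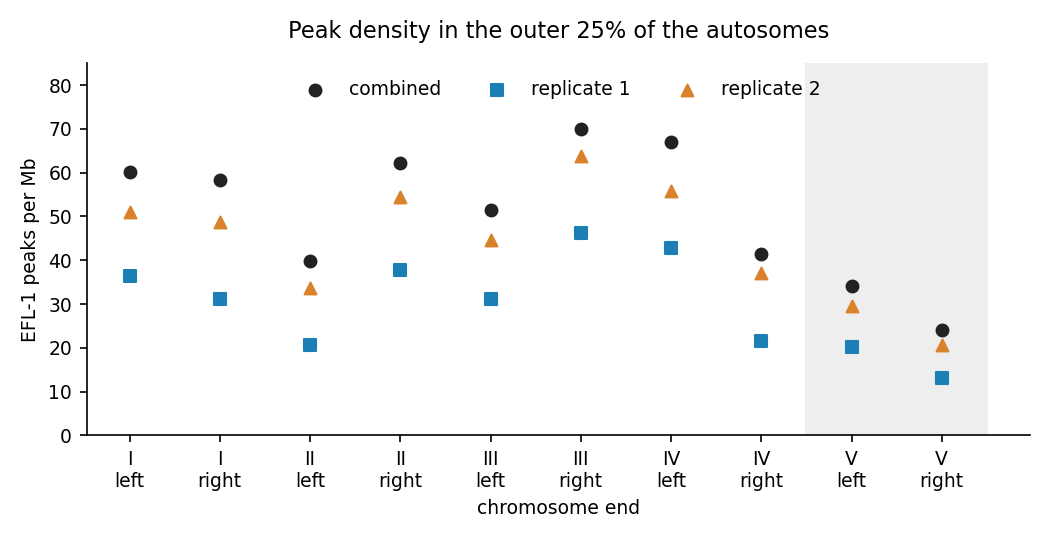
EFL-1 peaks per Mb at each autosome end (outer 25% of the span), with 1 point for each of the 3 lists and the V arms on a grey ground. In every list the V right arm is lowest and the V left arm next, at 24.1 and 34.0 peaks per Mb in the combined list.

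The V arms were sparse beside their own centre too. The centre of V had 52.7 combined peaks per Mb, so the arms reached 0.55 of it. On I to IV the ends had 56.1 and the centres 71.5 peaks per Mb, a ratio of 0.78. The drop from centre to end was larger on V, with an interaction ratio of 0.70 in a quasi-Poisson fit over 832 windows, whose 95% interval of 0.57 to 0.86 excludes 1. This fit was added after the lists had been seen, and the interaction ratio was 0.67 in replicate 1 and 0.73 in replicate 2. V is 1 chromosome here as well, so how much chromosomes vary is outside the interval. Among I to IV the steepest drop was on III, from 90.0 combined peaks per Mb in the centre to 60.7 at the ends.

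The second comparison set the left arm beside the right. The left arm held 178 peaks and the right 126, a density ratio of 1.41 whose 95% interval of 0.99 to 2.00 (quasi-Poisson) includes 1. The left arm was denser in both replicates, at 24.8 ± 6.6 against 16.8 ± 5.4 peaks per Mb (SD, n = 2), and the ratio was 1.54 and 1.42 in replicates 1 and 2. Whether the interval includes 1 depends on the peaks counted. The ratio was 1.65 (1.04 to 2.63) with the stronger 50% of combined peaks and 1.35 (1.02 to 1.80) with 1 peak per run of peaks under 10 kb apart.

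Within each arm, density was uneven. Counted from the chromosome's own end, the outermost 1 Mb of the left arm held 41 peaks and the next held 39, and the fourth held 25. The outermost 1 Mb of the right arm held 38 peaks and the fourth held 12. Both V arms were therefore denser at the tip than further in, with 41 against 32.4 peaks per Mb on the left and 38 against 20.8 on the right. Replicate 1 had 27 and 20 peaks in the outermost 1 Mb of the left and right arm, and replicate 2 had 35 and 32. The other ends went either way. The right of IV had 50 at the tip against 38.9 further in, much like the V left arm, and the left of II had 45 against 38.0. The left of I had 47 against 64.9. The outermost member on the left was at V 7201 to 9940, a 2740 bp peak of combined strength 100, with 41.5 in replicate 1 and 108 in replicate 2. The outermost on the right, at V 20903697 to 20904029, was weak, with a combined strength of 8.08, and had no partner in replicate 1.

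Long unbound stretches took up more of the V arms than of the other ends. Stretches of at least 100 kb with no combined peak numbered 25 on the V arms, 9 on the left and 16 on the right, and took up 41.4% of the arms. The other 8 ends held 20 such stretches on 8.62% of their span. By end, they covered 28.8% of the left and 54.0% of the right arm of V, against 0 to 22.1% on the ends of I to IV, so neither V arm overlapped those ends. The left end of X, at 26.6%, came close to the V left arm, and the right end of X had 18.3%. The left end of X and the V left arm were almost level in the replicates, at 57.1% and 57.0% in replicate 1 and 40.9% and 40.6% in replicate 2. Replicate 1 gave 64.4% for the V arms and 25.1% for the other ends, and replicate 2 gave 48.8% and 11.8%. Stretches are not independent of density, so no separate test was made. Their order among ends was not that of density alone. The right end of IV had 41.4 combined peaks per Mb and 22.1% in stretches, and the left end of II had 39.8 and 12.9%.

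Neither replicate placed a peak inside any of the 25 stretches. The combined list lacks only 1 replicate 1 peak and 4 replicate 2 peaks of the V arms, so this was nearly fixed by definition. The 3 longest on the right arm were V 16966988 to 17308038 (341 kb), V 17538940 to 17857758 (319 kb) and V 16042558 to 16338440 (296 kb). On the left arm they were V 2281923 to 2600303 (318 kb), V 3803701 to 4029640 (226 kb) and V 2877740 to 3088389 (211 kb). Of the 10 longest stretches of the autosomes, 8 lay on the V arms and the others on other autosomes. The longest stretch of the other ends was 201 kb, and the median stretch was 153 kb on the V arms and 124 kb there.

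Several of these stretches lie side by side on the right arm. From V 16593745 to 17857758, 5 of them made up 93.3% of 1.26 Mb, a region chosen after its values were seen. It held 9 combined peaks, of which 4 were found in both replicates and 3 belonged to the strongest 25% of the combined list. The sparsest 1 Mb of any autosome end fell here, at V 16780001 to 17780000, with 8 combined peaks, 4 in replicate 1 and 6 in replicate 2. The sparsest 1 Mb of the left arm, at V 2300001 to 3300000, held 16, and those of the other 8 ends held 23 to 58.

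**Figure D2:**
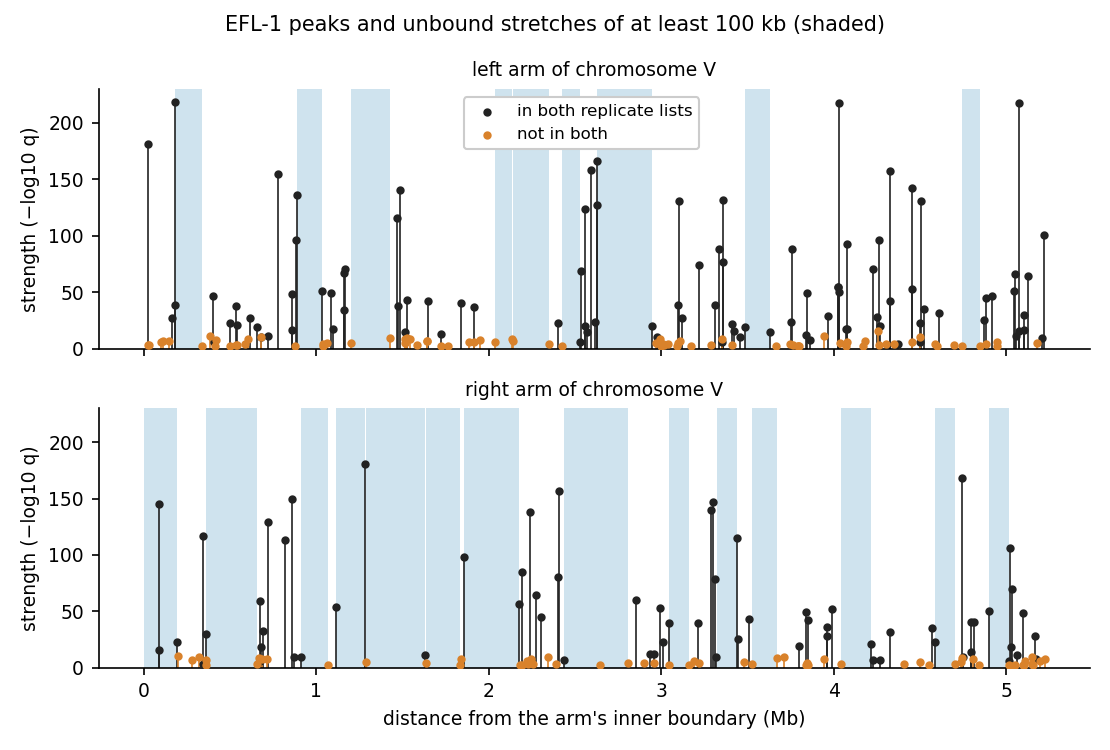
Strength (−log10 q) of each of the 304 V arm peaks against its distance from the arm's inner boundary in Mb, by arm, in black where both replicate lists hold the peak. Shading marks the 25 unbound stretches of at least 100 kb, which cover 28.8% of the left and 54.0% of the right arm.

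In windows of 100 kb the contrast was widest at the low end. Of 104 full windows on the V arms, 21 held no combined peak, or 20.2%, against 5 of 304 windows (1.64%) on the other ends. The empty share was 35.6% against 7.89% in replicate 1 and 25% against 2.96% in replicate 2. V arm windows held 2.9 ± 2.6 peaks and those of the other ends 5.6 ± 3.2 (SD over windows). The fullest window of the V arms, V 20680001 to 20780000 near the right end, held 10, and the fullest elsewhere held 18. The largest runs of peaks less than 10 kb apart had 6 members each, at V 16350915 to 16370355 and V 20693981 to 20717112, against up to 13 on the other ends.

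**Figure D3:**
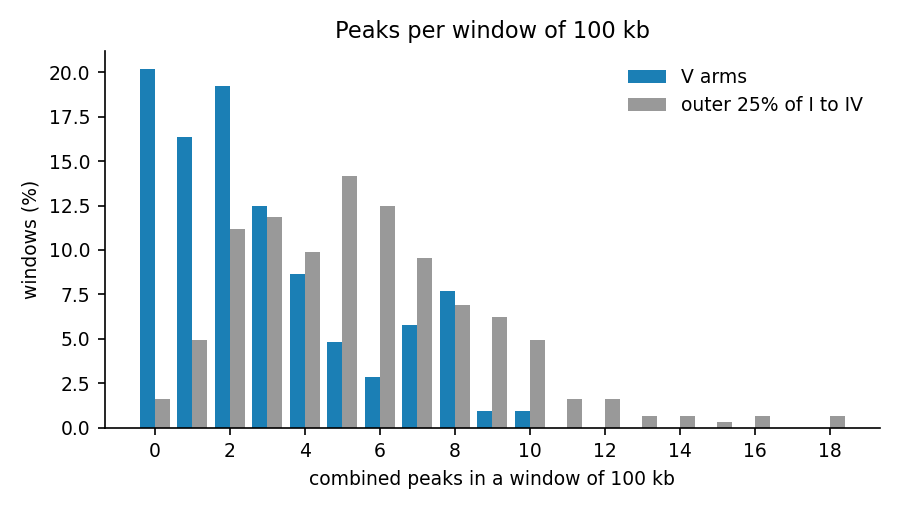
Share of full 100 kb windows (%) by the number of combined peaks they hold, for 104 windows on the V arms and 304 on the other ends. Windows without a peak make up 20.2% of the V arms and 1.64% of the other ends.

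No difference in closely spaced peaks passed the test. Another peak lay within 1 kb of 69 of 304 V arm peaks, or 22.7% (exact 95% interval 18.1 to 27.8), and for 21.2% (19.3 to 23.2) on the other ends (Fisher's exact test, two-sided p = 0.60). The gap was wider in replicate 1, at 19.7% and 13.9% (Fisher's exact p = 0.0625). Peaks standing alone in their run made up 113 of 179 runs on the V arms and 400 of 806 elsewhere. Peaks at least 50 kb from any other were rare, 8 of 304 on the V arms (2.63%) and 15 of 1724 on the other ends (0.87%). The strongest of the 8, at V 4450193 to 4451183, reached 155 in the combined list, 130 in replicate 1 and 144 in replicate 2.

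Despite the low density, strong EFL-1 sites did occur on both arms. Combined strength of the members ran from 2.01 to 218, with a median of 10.1 and a middle 50% from 4.55 to 41.8. On the other ends the median was 14.7 and the middle 50% ran from 4.83 to 49.8. Fewer V arm peaks exceeded the autosomal median strength, 134 of 304 or 44.1% against 50.4% (Fisher's exact test, two-sided p = 0.0464). This is a narrow call that treats clustered peaks as independent, and it did not hold in the replicate lists (Fisher's exact p = 0.41 in replicate 1 and 0.18 in replicate 2).

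By strength group, the V arms were sparser than the other ends in each of 4 groups of the combined list. Peaks of the combined list were divided into 4 equal groups, and the V arms held 79, 87, 66 and 72 of them from weakest to strongest. Their density relative to the other ends was 0.56, 0.62, 0.46 and 0.45 in the same order. Of the 100 strongest combined peaks 12 lay on the V arms, or 1.15 per Mb, and 48 on the other ends, or 1.56 per Mb. In the replicate lists this was 13 and 14 of the 100 strongest for the V arms, and 45 and 43 for the other ends. Per Mb it was 1.24 against 1.46 in replicate 1 and 1.34 against 1.40 in replicate 2. In each list the V arms thus fell less short of the other ends among the 100 strongest peaks than over all peaks, and least in replicate 2. These counts are small and were not tested.

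The 5 strongest members of the left arm that both replicates hold had combined strengths from 166 to 218. At V 5049191 to 5050333 the combined strength was 218 (rank 13 of the list), with 206 in replicate 1 and 208 in replicate 2, so both replicates placed it at almost the same level. The peaks at V 156031 to 157005 and V 1197002 to 1197996 also had a combined strength of 218 and 217. They differed more between replicates, with 146 and 205 for the former and 117 and 189 for the latter. The peak at V 5203943 to 5204790 reached 181, with 169 and 172 in the replicates. The fifth, at V 2600304 to 2601110, had 166 in the combined list, below its 172 and 177 in the single replicates, and ended the unbound stretch of 318 kb before it.

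On the right arm the 5 strongest ran from 147 to 181. The strongest, at V 16963351 to 16966263, had a combined strength of 181 (rank 32), with 141 in replicate 1 and 190 in replicate 2. It stood between the stretches of 168 kb and 341 kb of the sparse region, with a weak peak of strength 5.13 lying 341 bp after it. Replicate 1 called 932 bp of it, from 16965327 to 16966258, and replicate 2 called 2831 bp. The peak at V 20424165 to 20425410 followed with a combined strength of 168, and replicate values of 96.0 and 152. Those at V 18086291 to 18087694, V 16537740 to 16538446 and V 18980739 to 18981568 had combined strengths of 157, 150 and 147. Their replicate strengths were 136 and 146, 83.8 and 119, and 112 and 134. In all 10 of these peaks replicate 2 was the stronger.

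The peaks that border the chosen region differed in strength. The left arm's innermost member was V 5203943 to 5204790, given above. The next peak beyond it, in the centre at V 5268871 to 5269584, had a combined strength of 148. The right arm's innermost member, V 15765941 to 15766802, had a combined strength of 145, with 145 in replicate 1 and 144 in replicate 2. The last centre peak before it, V 15663915 to 15664492, had 4.95.

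The third comparison asked whether both replicates found the V arm sites. Of 304 members, 166 overlapped, by at least 1 bp, a peak in both replicate lists, or 54.6% (48.8 to 60.3), against 57.4% (55.0 to 59.7) on the other ends (Fisher's exact test, two-sided p = 0.38). Over all combined peaks it was 56.1%. On the V arms another 90 peaks (29.6%) were in replicate 2 alone, 4 in replicate 1 alone and 44 (14.5%) in neither list. Their median combined strengths were 38.6 for peaks in both, 5.80 for replicate 2 alone, 4.04 for replicate 1 alone and 2.54 for neither. All 72 V arm peaks of the strongest group were in both lists, as were 65 of 66 (98.5%) of the next. In the group below it was 27 of 87 (31.03%), and in the weakest 2 of 79 (2.53%). The share fell with strength on the other ends too, at 100%, 92.2%, 30.02% and 0.24% from strongest to weakest. Of all peaks on the other ends, 27.4% were in replicate 2 alone and 14.6% in neither list, close to the V arm shares. The strongest member missing from a list was V 975143 to 975630, which had a strength of 13.6 in replicate 2 and no partner in replicate 1. The left and right arm had 55.6% and 53.2% in both lists (Fisher's exact p = 0.73).

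Seen from the single lists, 168 of 173 replicate 1 peaks on the V arms overlapped a replicate 2 peak, or 97.1%, and 168 of 262 in the other direction, or 64.1%. The 5 replicate 1 peaks without a partner did not exceed a strength of 3.07. The combined list left out 1 replicate 1 peak and 4 replicate 2 peaks of the V arms, none of them shared by the replicates and none above 6.34 in strength.

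At the 166 shared sites, strength was higher in replicate 2 at 160. Replicate 1 ran from 2.03 to 206 with a median of 13.0, and replicate 2 from 2.07 to 208 with a median of 28.7. Replicate 2 divided by replicate 1 had a median of 1.80 (middle 50% from 1.31 to 2.52), against 1.82 on the other ends. The ratio was 1.83 on the left arm and 1.76 on the right. Spearman's rho between the replicates was 0.95 over the 166 sites, as a description across peaks that share their libraries, and 0.95 over 989 sites of the other ends.

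**Figure D4:**
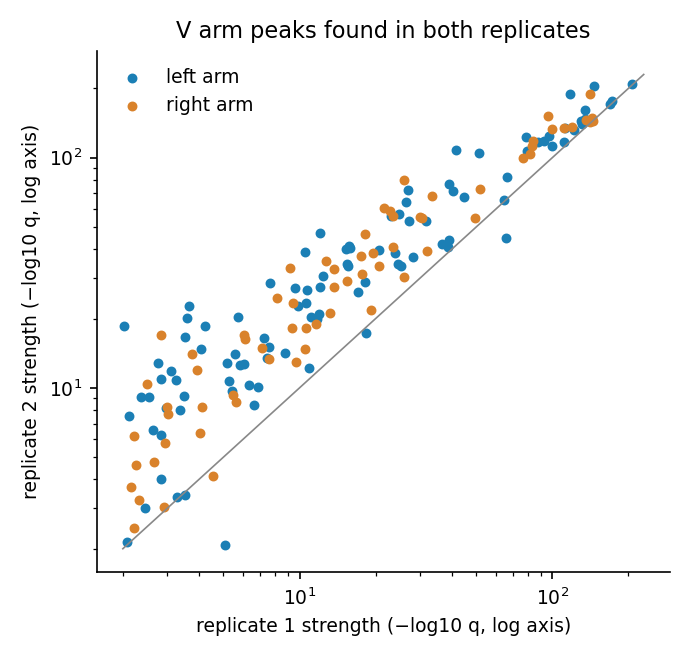
Strength (−log10 q, log axes) in replicate 1 and replicate 2 of the 166 V arm peaks found in both lists, by arm, with the line of equal strength. Replicate 2 is the stronger at 160 of the 166, and the arms are intermixed.

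The fourth comparison concerned width. V arm peaks had a median width of 452 bp (middle 50% from 344 to 682), against 425 bp (327 to 585) on the other ends. The share above the autosomal median width was 52.3% against 47.7%, a difference that did not pass the test (Fisher's exact test, two-sided p = 0.15). In replicate 1 alone it was 8.26 percentage points (Fisher's exact p = 0.0485), and in replicate 2 it was 2.27 (Fisher's exact p = 0.50). Peaks of the V centre, with a median of 469 bp, and of the X ends, with 468 bp, were no narrower than those of the V arms in the combined list. In replicate 1 the V arms had the widest median of the 3, at 491 bp beside 467 bp in the V centre and 446 bp on the X ends. In replicate 2 they had the narrowest, at 423 bp beside 463 and 447 bp. Within strength groups the widths separated more. Strength was not matched inside a group, as the strongest ran from 43.9 to 288. Width also rose with strength (Spearman's rho 0.58 on the V arms and 0.66 on the other ends). The V arm medians of the 4 groups, starting with the weakest, were 350, 383, 488 and 810 bp, beside 286, 364, 445 and 603 bp on the other ends. Peaks wider than the autosomal median of their group were 62.0% against 44.9% in the weakest (Fisher's exact test with Benjamini-Hochberg adjustment over the 4 groups, adjusted p = 0.0133). They were 69.4% against 49.4% in the strongest (Fisher's exact, adjusted p = 0.00604). The 2 groups between gave adjusted p = 0.24 and 0.0621 in the same Fisher's exact test. Only 2 of the 79 V arm peaks in the weakest group were in both replicate lists, and its widths were not split by replicate. In that group the 5th percentile of width was 152.7 bp on the V arms and 40.65 bp on the other ends.

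The excess in the strongest 25% of peaks was seen in each list and each arm. In the combined list 50 of 72 V arm peaks exceeded the group's median width, or 69.4%. In replicate 1 it was 31 of 43, or 72.1%, with 52.2% on the other ends (Fisher's exact p = 0.0145). In replicate 2 it was 43 of 58, or 74.1%, with 49.9% on the other ends (Fisher's exact p = 0.000637). Median widths of these peaks were 748 bp on the left and 840 bp on the right arm, and 545 to 792.5 bp on the other ends. The left end of III, at 792.5 bp, thus lay above the V left arm in the combined list. In replicates 1 and 2 the V arms had 724.5 and 696 bp, and 759 and 752 bp, above all other ends (at most 618.5 and 662 bp). These splits by list and arm were added after the lists had been seen. In the strongest group of the combined list, 12 of 72 V arm peaks ranked among the 100 strongest, against 48 of 474 on the other ends. Strength thus differed within the group, and its part in the width excess was not tested.

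Peaks of at least 1 kb, also counted after seeing the lists, were more frequent on the V arms than on the ends of I to IV. They numbered 36 of 304, or 11.8% (8.43 to 16.0), against 105 of 1724, or 6.09% (5.01 to 7.33), on the other ends (Fisher's exact test, two-sided p = 0.000827). Replicate 1 had 9.83% on the V arms and 5.28% on the other ends (Fisher's exact p = 0.0240). Replicate 2 had 8.02% and 4.90%, which did not pass (Fisher's exact p = 0.0518). In the combined list the share was 11.8% on the left and 11.9% on the right arm, and 4.61% to 9.39% on the other ends. The single ends overlapped in both replicates. In replicate 1 the V right arm had 8.82% and the right end of IV 9.57%, and in replicate 2 they had 5.56% and 8.02%. The V centre and X were left out of this count. The upper quartile of combined width was 682 bp on the V arms, 646.5 bp in the V centre and 709.5 bp on the X ends. The X ends were below the V arms in replicate 1 (604 against 656 bp) and above them in replicate 2 (665 against 601 bp). The widest member, at V 723753 to 728344, was 4592 bp wide and was called over 4555 bp in replicate 1 and 4530 bp in replicate 2, with strengths of 130, 65.5 and 44.7. At this peak replicate 1 exceeded replicate 2, as it did at few of the shared sites. The next were the 2913 bp peak that led the right arm and a 2863 bp peak at V 1261827 to 1264689, which each replicate called as 2 separate peaks. Wide peaks did not offset the low density, since members covered 1.77% of the V arms and peaks covered 2.90% of the other ends.

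**Figure D5:**
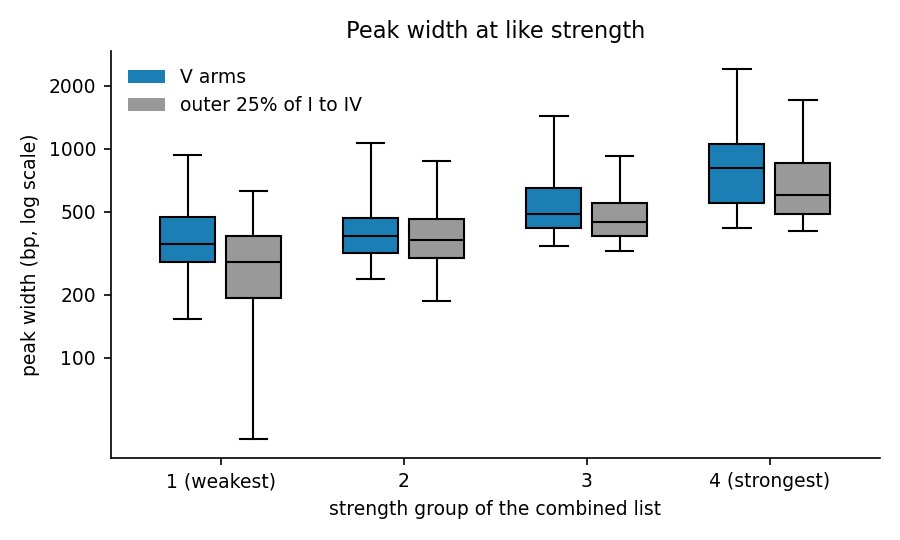
Width (bp, log scale) of combined peaks in 4 equal groups by strength, for the V arms and the ends of I to IV. Boxes show the middle 50% with the median, and whiskers reach from the 5th to the 95th percentile. The V arm median is the higher in each group, at 810 against 603 bp in the strongest.

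No difference in strength or width between the arms of V passed the test. The share above the autosomal median strength was 46.6% on the left and 40.5% on the right (Fisher's exact test, two-sided p = 0.29). The direction turned in replicate 1, at 45.7% and 52.9% (Fisher's exact p = 0.44). The share above the autosomal median width was 53.4% and 50.8% (Fisher's exact p = 0.73).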

How the data were processed

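The deposited files are 3 peak lists, 1 for each ChIP replicate and 1 combined list, and their 1 measurement is the q-value (an adjusted p-value) that the authors' peak caller gave. Per the file headers positions are on WormBase WS220, and the source column of the deposited lists names PeakSeq. Not given in the sources used here: its version, the aligner, the read filters, how input was used and how the lists were combined. No q-value exceeds 0.01. Comments in the deposited files record lengths changed when positions were lifted over, none of them on V. The combined list has no replicate error of its own. Depth is unknown for every library, and exact Clopper-Pearson 95% intervals on shares cover counting error only.

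Peaks were placed by midpoint. The ends of I to IV were the first and last 25% of the span, which was taken to reach from the first base to the end of the furthest peak in the 3 lists. Peaks of different lists were matched by an overlap of at least 1 bp, keeping the strongest partner. Densities were compared by quasi-Poisson regression on windows of 100 kb (statsmodels 0.14.6, tested on simulated data), shares by Fisher's exact test (scipy 1.17.1), which treats peaks as independent. The simulated windows were drawn independently, so they cover neither dependence between windows nor variation among chromosomes. Strength and width were compared as shares above the autosomal median of the list. Named items followed a rule: the 5 strongest peaks of each arm found in both replicates, the 3 widest members, the 3 longest unbound stretches of each arm and the peaks beside each boundary; other named items were chosen after their values were seen. The members, lists and tests were chosen with earlier results of these data known. No motif was searched and no sequence is shown, since no genome of the WS220 build was used here.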

Additional observations from a re-analysis of the deposited data

How the results depend on the processing

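Over 13 results, 58 alternatives were run, and 42 kept direction and side of the threshold or, with no test, stayed within the replicate SD. The ratio of V arm density to that of the other ends kept both under each alternative, and was lowest at 0.45 with the stronger 50% of combined peaks and highest at 0.65 with 1 peak per run. The left to right ratio passed the threshold at 1.65 with the stronger 50% and 1.35 with 1 peak per run. The difference in peaks above median strength, -6.33 percentage points, was -5.22 with peaks in both lists, -3.33 for the upper quartile and -4.68 to -3.45 without either replicate, none past the threshold. The width difference, 4.56 points, was 7.45 for the upper quartile, past the threshold, and 2.27 to 8.26 without either replicate, of which 8.26 (replicate 1 alone) passed. That in peaks of at least 1 kb was 3.11 to 4.55 without either replicate. Some differences that passed no test changed sign. The share in both lists gave 2.95 points among the stronger 50%, and a neighbour within 2 kb gave -1.68. Left against right strength gave -7.23 in replicate 1 alone, whereas 1.66 in replicate 2 alone kept the sign. The cause of these changes was not tested. By construction, the percent of the V arms in unbound stretches was 63.5 from 50 kb, 28.1 from 150 kb, 72.5 with the stronger 50% of peaks and 48.8 to 64.4 without either replicate. The motif comparison was planned and not run. What depth limits was not assessed, since read numbers are unknown. No paired analysis was possible because peak lists exist for the ChIP samples alone.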

Other observations

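Some strong V arm sites bordered empty ground. Of the 72 V arm peaks in the strongest 25% of the combined list, 10 adjoined an unbound stretch of at least 100 kb, or 13.9%, against 10 of 474, or 2.11%, on the ends of I to IV. The V arms hold 25 such stretches among fewer peaks and the other ends 20, and the difference was not tested. V arm peaks of all strengths were not counted in this way, so the figure does not set strong peaks apart from the rest. Most peaks beside these stretches were outside the strongest 25%. The 341 kb stretch lay between peaks of strength 5.13 and 11.6, and the 296 kb stretch between 2.79 and 3.04. The peak at V 4339149 to 4339992, for example, had a combined strength of 136 and followed a stretch of 144 kb.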
